A study of Mus musculus with 22 samples.

Results

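Whole brains of 12 male mice of the inbred strain DBA/2J (D2) were measured on exon arrays, 1 mouse to an array, and the report describes how gene values varied among these 12 mice. They were chosen by the strain given in the array titles and are 12 of the 22 arrays of the series. All 12 were naive adults killed by cervical dislocation, and the brains were flash frozen. Their exact age, litter, cage, and hour of death are not given in the labels. The array type, Affymetrix Mouse Exon 1.0 ST, places several groups of probes (probesets) on the exons of a gene. A gene's value was the median log2 value of its kept probesets, those with an overall mean of at least 1.44, which is the median of the means of all probesets. At least 3 kept probesets were needed. This gave 16016 genes from 236114 probesets, with a median of 12 probesets per gene.

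Mice of an inbred strain are genetically near identical, so the variation between them is largely not allelic. Whole brain RNA is a mixture from neurons, astrocytes, oligodendrocytes, microglia and vessels, and of whatever neighbouring tissue came out with the brain. In such bulk RNA, fewer cells of a type and less RNA per cell cannot be told apart. Differences between mice and differences between array runs cannot be told apart either, because no brain was measured more than once. On this array, the level of 1 gene is not set against that of another, since probes differ in affinity, and each gene is followed across mice.

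No array was a copy of another, the largest share of identical values between any pair being 0.0654%. The correlation between arrays over all 595203 kept probesets, with or without a gene symbol, ranged from 0.914 to 0.959, with a median of 0.942. The arrays of mice 13 and 22 stood apart on the first principal component, at 35.3 and 22.9, with the other 10 mice between -21.4 and 7.57, and that of mouse 19 on the second, at 35.4. The names of the array files of mice 13 and 22 carry the letter B and the other 10 the letter A, and the labels do not say what the letter stands for. Mouse 13 was the lowest of the 12 for 22.95% of genes and mouse 19 for 20.04%, and mouse 23 was the highest for 15.98%, where an even share would be 8.33%. The median gene value ran from 4.40 in mouse 19 and 4.42 in mouse 13 to 4.73 in mouse 23. Calls by limma and some correlations are also given with some of these arrays left out. Ranges and SDs of the named genes are over all 12 mice, including these arrays. The Y-linked genes Eif2s3y (5.53 to 6.47) and Kdm5d (4.31 to 4.96) had values in every mouse, and Xist lay between 0.18 and 0.64 over all its probesets (the labels give all 12 mice as male).

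Genes of the main brain cell types were measured in every mouse. Of 281 genes on 23 lists, 241 had at least 3 kept probesets. The pan-neuronal genes included Snap25, a protein of synaptic vesicle fusion, at 10.01 ± 0.161 (mean ± SD, n = 12 mice here and below), and Syt1, the calcium sensor of vesicle release, at 9.55 ± 0.132. Among glutamatergic genes, Camk2a, a kinase of excitatory synapses, stood at 9.52 ± 0.0934 and the vesicular glutamate transporter gene Slc17a7 at 9.12 ± 0.207. The GABA-synthesising enzyme genes Gad1 and Gad2 stood at 8.28 ± 0.0948 and 7.81 ± 0.17. Median SDs of the lists of neuronal genes ran from 0.225 for striatal to 0.274 for GABAergic genes, against 0.25 over all genes. This comparison was not matched for level. Median levels of these lists ran from 6.07 for striatal to 8.10 for pan-neuronal genes, against 4.57 over all genes. The median SD was 0.300 in the 10% of genes with the lowest levels and 0.187 in the 10% with the highest. The region genes Ppp1r1b of the striatum (7.57 ± 0.224) and Itpr1 of cerebellar Purkinje cells (8.98 ± 0.0787) were likewise present in every brain.

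The lists of glial and vascular genes had median SDs from 0.202 for astrocytes and 0.227 for oligodendrocytes to 0.280 for microglia, 0.281 for oligodendrocyte precursors and 0.305 for choroid plexus and ependyma. An SD below the median of all genes was found for 8 of 12 astrocyte, 7 of 12 oligodendrocyte, 6 of 14 microglial, 5 of 11 endothelial and 4 of 13 choroid plexus and ependymal genes. These counts were not matched for level either. Median levels were 6.37 for astrocyte and 7.12 for oligodendrocyte genes, but 4.08 for microglial, 4.32 for endothelial and 4.15 for choroid plexus and ependymal genes. Aldoc, a glycolytic enzyme enriched in astrocytes, stood at 10.30 ± 0.0709 and was among the most stable genes at its level. Mbp, the myelin basic protein gene, stood at 8.34 ± 0.152 and Cnp, a myelin enzyme gene, at 8.87 ± 0.161. Of 14 measured microglial genes, Csf1r, the receptor that microglia need to survive, stood at 6.05 ± 0.148, and C1qc, a complement subunit gene, at 3.42 ± 0.565, the only microglial gene in the highest 5% of SDs, although its probesets correlated at only 0.239 over the mice. C1qc was lowest in mouse 13, had a median of 3.37 and reached 4.44 in mouse 20, while its partner subunit genes C1qa (4.66 to 6.12) and C1qb (4.30 to 5.62) had their highest values in other mice. Among vascular genes Vwf, an endothelial clotting factor gene, stood at 3.85 ± 0.107 and Rgs5, a pericyte gene, at 7.00 ± 0.249. Kcnj8, which encodes a potassium channel subunit of pericytes, varied more, at 3.15 ± 0.742, with 1.73 in mouse 13 and 4.02 in mouse 23. Ttr, the thyroid hormone carrier made by the choroid plexus, stood at 10.72 ± 0.171, with 10.33 in mouse 18 as its lowest value. No list member had a mean below the level of 1.44 used to keep probesets, which the choice of probesets itself favours.

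**Figure D1:**
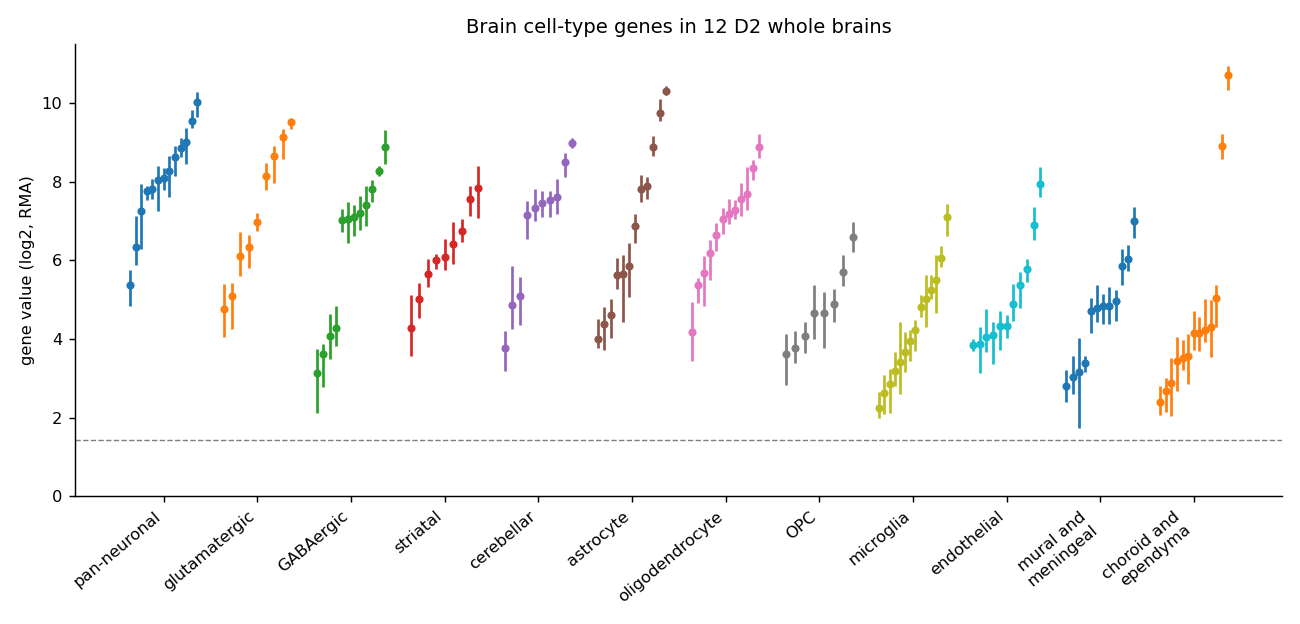
Each point is the mean gene value (log2, vertical axis) of 1 gene over 12 D2 mice and its bar runs from the lowest to the highest mouse, by list of cell-type genes (horizontal axis; OPC, oligodendrocyte precursor; genes sorted by mean within a list only for display). The dashed line is the 1.44 used to keep probesets, and Kcnj8 (1.73 to 4.02) has one of the longest bars, while Aldoc and Camk2a hardly move.

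Most genes varied little between the mice. The SD over the 12 mice had a median of 0.25 on the log2 scale, with 0.132 at the 5th percentile and 0.458 at the 95th. It reached 0.5 in 473 of 16016 genes (2.95%) and 1 in 8 genes. The median SD fell from 0.300 in the 10% of genes with the lowest mean levels to 0.187 in the 10% with the highest. Gria1, an AMPA glutamate receptor subunit gene, had the lowest SD of all, 0.0507, with 8.20 in mouse 20 as its lowest value and 8.34 in mouse 21 as its highest. Among the 10% of genes with the highest levels, very low SDs were also found for Cct3, a chaperonin subunit gene (0.0591), and Mapk8ip3, a kinase scaffold gene (0.0615). Srebf2, a sterol-regulated transcription factor gene, had 0.0622 and Acly, an enzyme gene of lipid synthesis, 0.0723. Kept probesets numbered 24 for Gria1, 18 for Cct3, 41 for Mapk8ip3, 81 for Srebf2 and 30 for Acly, against a median of 12. The probesets of these genes correlated at only 0.042 to 0.150 over the mice. Whether the low SDs went with the number of probesets was not tested.

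A gene's probesets lie along its exons and give several readings of 1 RNA, so their correlation over the mice shows whether they moved together. The median correlation between probesets of a gene was 0.118 over all genes, and only 419 genes (2.62%) reached 0.5. Of the 50 most variable genes, 15 reached it, and 28 of the 50 had only 3 kept probesets. The 24 most variable genes that reached 0.5 were Gh, AY036118, Pomc, Astx5, Scgb1c1, Rnu2-10, Cyp2g1, Gm6813, Ndufa2, Gpx6, Hmgn2, Gm9068, Rwdd3, Kcnj8, Mrpl47, Omp, Btn2a2, Lhb, Orm3, Nudt14, Rarres2, Efhd1, Znf41-ps and Gemin6. Gemin6, the last of these, had an SD of 0.592, and the next gene below it, Smim5, 0.591. Among genes with poorer agreement, the most variable were Ranbp1 (SD 1.08, probeset correlation 0.251), BC065788, Foxi1, Orly, Speer8-ps1 and Gm5064. Gm5064 had probesets that correlated at -0.16, so its SD of 0.907 came with readings that did not move together.

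**Figure D2:**
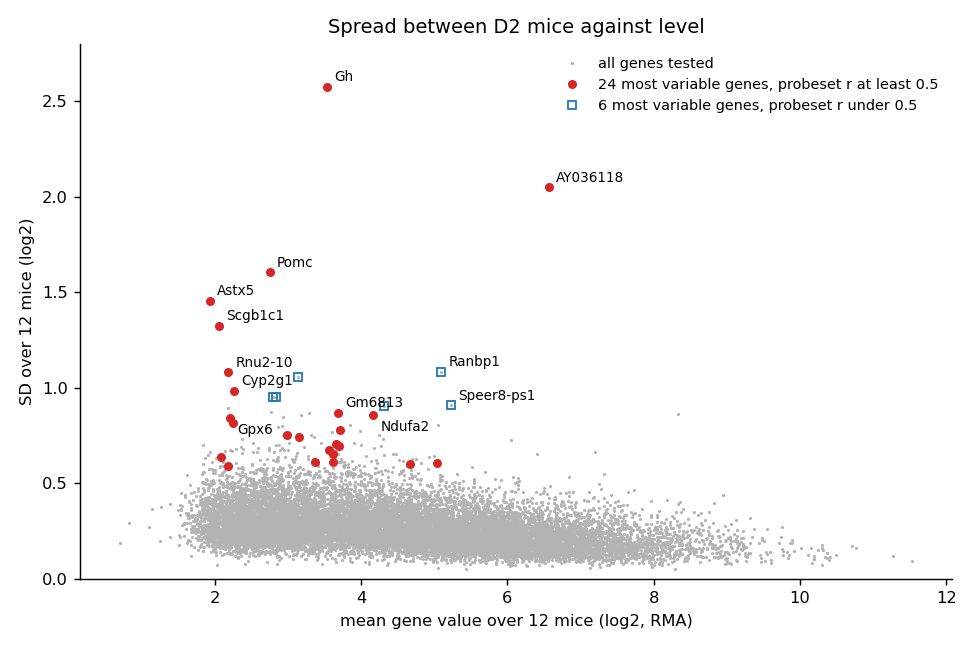
SD over the 12 mice (log2, vertical axis) against mean gene value (log2, horizontal axis) for 16016 genes in grey. Filled circles are the 24 most variable genes whose probesets agreed and open squares the 6 most variable that did not; Gh and AY036118 lie far above the cloud, at SDs of 2.58 and 2.05.

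The gene that varied most was Gh, which encodes growth hormone and is made by somatotroph cells of the anterior pituitary. Its value was 10.34 in mouse 20 and 6.90 in mouse 15, and 1.84 to 3.65 in the other 10 mice. Pomc, the precursor of corticotropin and melanocortins, which the pituitary and arcuate hypothalamic neurons make, followed it with 7.28 in mouse 20, 4.11 in mouse 15 and 1.60 to 3.09 in the others. Lhb, the luteinizing hormone beta subunit gene, was highest in mouse 20 at 5.28, with 2.72 to 4.17 elsewhere. The hormone genes Prl (7.79), Cga (6.01) and Fshb (3.39), which had too few kept probesets for the main table, also peaked in mouse 20 when all probesets were used. In mouse 15 Prl stood at 4.55 and Cga at 3.04, while in the other 10 mice Prl lay between 0.32 and 0.83. Lhb and Fshb were not raised in mouse 15. Lhb stood at 3.38 there, with a median of 3.47 over the mice, and Fshb at 0.82, with 0.85 in mouse 17. With all probesets, 9 of the 10 pituitary genes were highest in mouse 20 (90%), where 12.51% of all 20036 genes were. The exception was Pitx1, a transcription factor gene. Of the 9, Tshb and Gnrhr lay below the level used to keep probesets in every mouse. Tshb stood at 0.76 in mouse 20 and 0.10 to 0.60 in the others, and Gnrhr at 0.56 against 0.09 to 0.33.

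Among all genes, limma called Pomc as the only one that moved with Gh (1 of 16015, 0.00624%). Its slope was 0.605 ± 0.041 log2 units per unit of Gh (adjusted p = 1.2e-06 by limma). Lhb had a slope of 0.19 ± 0.046 that did not pass (adjusted p = 0.867). The correlation of Gh with Pomc was 0.97 (Spearman 0.76, permutation p = 5e-05 and 0.00636; over 125 pairs adjusted p = 0.00625 and 0.262), and 0.79 with mice 20 and 15 left out. Without these 2 mice limma called no gene (1043 at an unadjusted p under 0.05). With all probesets it called 5, Prl, Cga, Fshb, Pomc and Ubtfl1. Pomc was called with any single mouse left out, and a second gene was called without mouse 21. Of 9 hypothalamic peptide genes, 1 was highest in mouse 20, Trh, the thyrotropin-releasing hormone gene, at 4.71 there and 2.98 to 4.58 in the other mice. Avp, the vasopressin gene, stood at 4.54 there and 3.40 to 4.69 in the other mice, and Ghrh, the hypothalamic driver of growth hormone, at 5.81 against 5.17 to 6.09.

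Mouse 22 held the highest values of genes known from the nasal epithelium. Scgb1c1, a secretoglobin of the olfactory mucosa, stood at 5.78 there and 0.91 to 2.73 in the other mice. Cyp2g1, an olfactory cytochrome P450, stood at 4.51 against 0.71 to 2.95, and Gpx6, an olfactory glutathione peroxidase gene, at 4.39 against 1.38 to 3.05. Omp, the marker of mature olfactory sensory neurons, was also highest in mouse 22, at 4.66, but mouse 19 followed at 4.53 and the lowest value was 2.43. Scgb1c1 called 2 of 16015 genes by limma (0.0125%), Gpx6 with a slope of 0.577 ± 0.074 (adjusted p = 0.0116) and Cyp2g1 with 0.655 ± 0.094 (adjusted p = 0.0232). With all probesets 4 genes were called, among them Aox2 and Ugt2a1, which stood at 2.88 and 2.52 in mouse 22. Without mouse 22, without mice 22 and 16 or with the 10 letter A arrays only, no gene was called by limma (359 to 421 at an unadjusted p under 0.05), and without any 1 of mice 14, 18, 20, 21 or 23 only 1 was. Among the 10 measured genes of the fixed olfactory list, Omp was highest in mouse 22, but Gng13 (3.66 to 5.40) and Cdhr1 (3.64 to 4.95), for example, were not. S100a5, the list's first gene, was called with none by limma (1136 at an unadjusted p under 0.05).

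**Figure D3:**
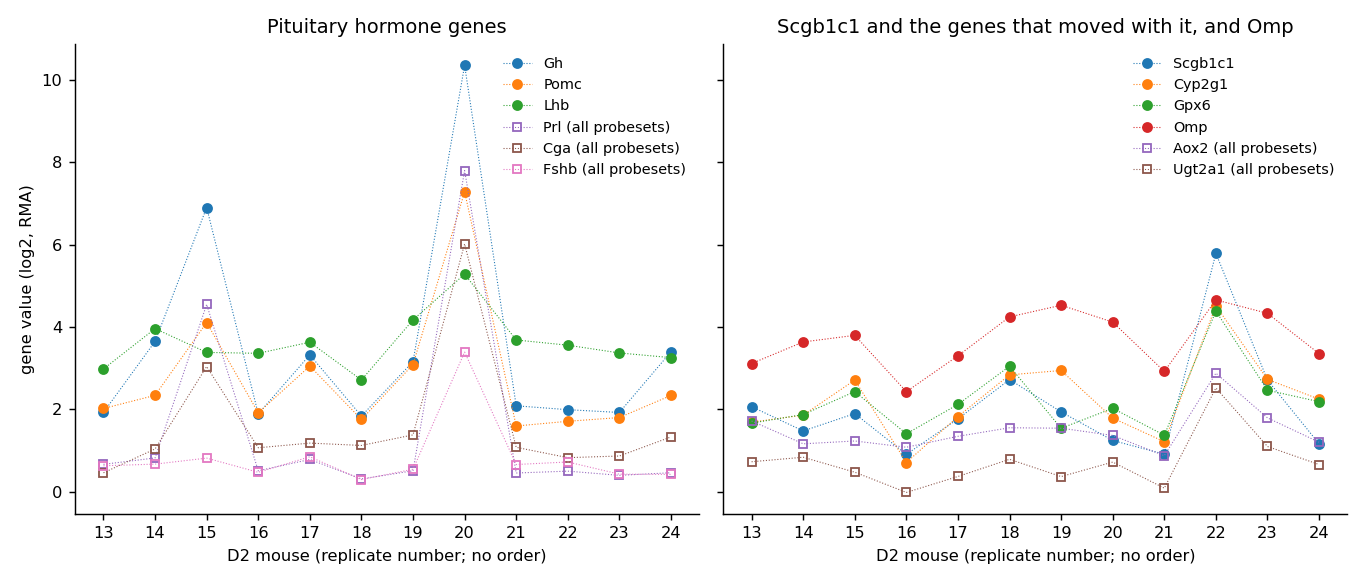
Gene values (log2, vertical axis) of pituitary hormone genes (left) and of Scgb1c1 and genes that moved with it (right) in each D2 mouse (horizontal axis; dotted lines join the values of 1 gene only to guide the eye). Squares are values over all probesets. Gh reaches 10.34 and Pomc 7.28 in mouse 20, and Scgb1c1 reaches 5.78 in mouse 22.

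AY036118, an annotated transcript of no stated function here, varied in another way: it was low in few mice. It stood at 1.74 in mouse 22, 3.35 in mouse 21, 5.55 in mouse 14 and 6.52 in mouse 13, and at 7.19 to 8.35 in the other 8. Its 9 probesets correlated at 0.97, 8 of them were lowest in mouse 22 and all 9 were highest in mouse 24. Astx5, a member of a multicopy family on the X chromosome whose near-identical copies the probesets may not separate, fell into 2 levels, 0.02 to 1.02 in mice 13, 19, 20, 23 and 24 and 1.92 to 3.74 in the other 7. Neither gene moved with any other by limma (0 of 16015 genes called for each, and 629 and 639 genes at an unadjusted p under 0.05). Ndufa2, a subunit gene of respiratory complex I, likewise stood at 4.74 to 5.50 in mice 14, 15, 16, 18 and 21 and at 3.19 to 4.07 in the other 7. Its 5 probesets correlated at 0.79.

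Other variable genes had 1 mouse far from the rest or a broad spread. Rarres2, which encodes the chemoattractant chemerin, was 1.90 in mouse 19 and 2.92 to 4.04 in the others. Gm9068 was 2.04 in mouse 19 and 2.42 in mouse 20, and 3.48 to 4.67 in the remaining 10. It was the only gene that limma called with the array's median over all probesets, which ran from 1.45 to 1.51 (1 of 16016 genes, 0.00624%, falling with it, adjusted p = 0.0174), and it was not called without mouse 15, 18, 19, 20 or 21. Efhd1, a mitochondrial calcium-binding protein gene, ran from 3.79 in mouse 13 to 6.04 in mouse 23. Orm3, an acute-phase glycoprotein gene, ran from 0.86 in mouse 16 to 2.98 in mouse 24 without a gap. Hmgn2, Rwdd3 and Znf41-ps had their lowest values in mouse 14, at 1.03, 1.88 and 3.42. Nudt14 was lowest in mouse 13 (2.46) and highest in mouse 20 (4.47).

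**Figure D4:**
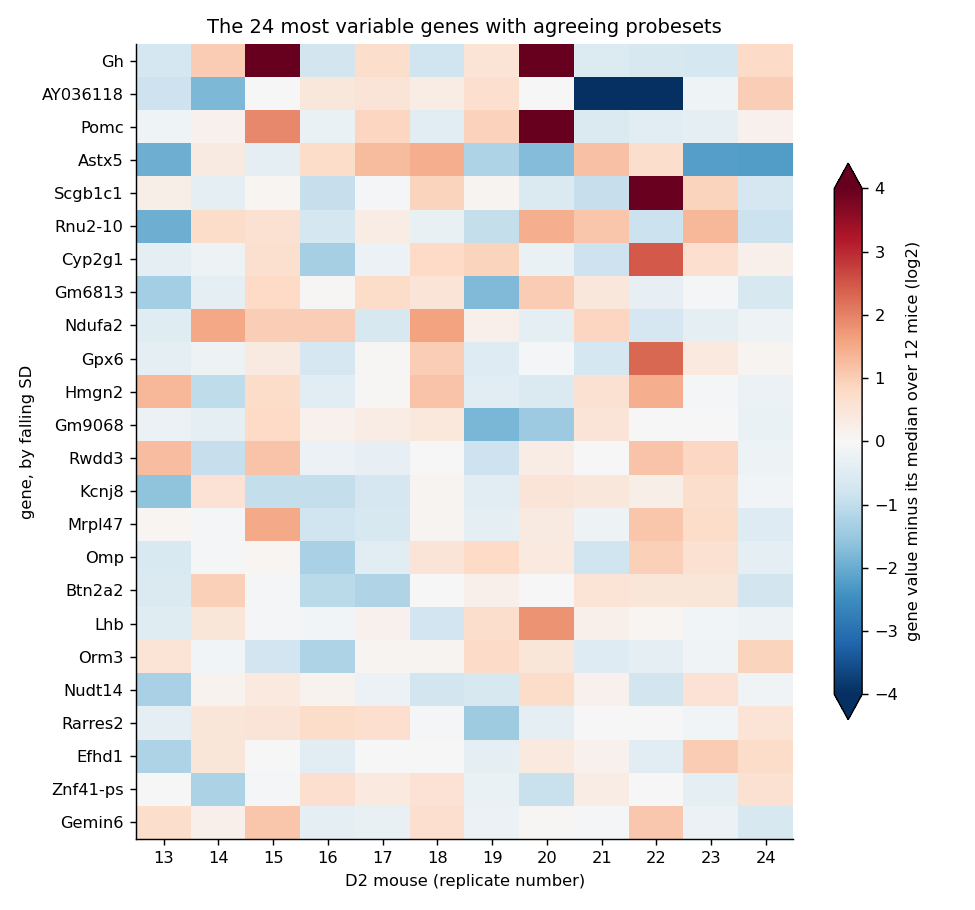
Deviation of each gene value from the gene's median over the 12 mice (log2, colour) for the 24 most variable genes with agreeing probesets (rows, by falling SD) in each mouse (columns; the colours stop changing beyond 4 units either way). Single dark cells mark Gh in mice 15 and 20, Pomc in mouse 20, Scgb1c1 in mouse 22 and AY036118 in mice 21 and 22.

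Rnu2-10, a gene copy of the U2 spliceosomal small nuclear RNA, varied together with many genes. Its value ran from 0.24 in mouse 13 through 3.29 in mouse 21 and 3.51 in mouse 23 to 3.65 in mouse 20, and since U2 copies are near identical the probesets cannot be tied to 1 copy. By limma, 505 of 16015 genes moved with it (3.15%), 502 in the same direction and 3 in the opposite one. Dad1, a subunit gene of the oligosaccharyltransferase, had the smallest p, with 5.74 in mouse 13, 8.08 in mouse 23 and 8.09 in mouse 20 (slope 0.549 ± 0.078, adjusted p = 0.0183). Polr2f, an RNA polymerase subunit gene, Cdkn1a, of the glucocorticoid and stress list, Gpx1, a peroxidase gene, Mrm2 and Plpp2 followed with the same adjusted p. No call was left without mouse 13, 20 or 23, without mice 13, 14 and 19, or with each array centred on its median gene value (1821 to 2814 genes at an unadjusted p under 0.05). A single gene was called among the 10 letter A arrays. Without mouse 22 there were 277 calls and without mouse 17 there were 302. Mouse 13 also had one of the lowest median gene values and mouse 23 the highest. Centring on the median gene value left 0 calls. The array median over all probesets as a covariate left 445, 366 of them among the 505. These 2 measures of an array differ: mouse 19 had the highest array median, 1.51, and the lowest median gene value, 4.40. The 445 calls were therefore not adjusted for the level that centring removes.

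The file letter itself was compared over all genes, with mice 13 and 22 against the other 10. By limma 166 of 16016 genes differed (1.04%), 148 of them lower and 18 higher in the 2 letter B mice. With arrays centred on their median gene value the split was 128 lower and 108 higher, and with the array median as a covariate 212 lower and 75 higher. Antkmt, a lysine methyltransferase gene, stood at 6.17 and 6.29 in mice 13 and 22 and at 7.22 to 7.81 in the other mice (difference -1.31 ± 0.171, adjusted p = 0.0157). C1qtnf4, which encodes a C1q-like secreted protein, stood at 4.95 and 5.25 against 6.02 to 6.55. Pcp4l1, Hpcal4, Fscn1, Ehd3, Gas2l1 and Arf4 were all lower in the letter B mice too. The neurofilament genes differed in opposite directions: Nefl, the light chain, was 6.28 and 6.54 in the letter B mice against 6.84 to 7.93, and Nefm, the medium chain, was 7.13 and 7.00 against 5.88 to 6.48. The probesets of Nefl and Nefm correlated at only 0.202 and 0.278 over the mice. Syn1 and Tubb3, both pan-neuronal, were lower as well, as were Ppp1r17, Sox10, Nr4a1 and Rplp0, while En2, a cerebellar patterning gene, was higher (5.85 and 5.39 against 4.25 to 5.14). Probeset correlations were 0.396 for Syn1, 0.512 for Tubb3, 0.223 for Ppp1r17, 0.262 for Sox10 and 0.209 for En2. With mouse 13 left out, so that a single letter B mouse remained, limma called no gene (1131 at an unadjusted p under 0.05). Leaving out mouse 14, 15, 16, 17, 20, 21, 22 or 23 gave 19 to 103 calls.

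Many genes of the circadian clock drive one another through E-boxes and D-boxes in their promoters, and their RNA in tissue cycles over the day. Dbp, a clock output transcription factor gene, ran from 5.91 in mouse 22 and 5.99 in mouse 13 to 6.75 in mouse 20 and 7.00 in mouse 14. Ciart, a repressor gene of the clock, was 4.37 in mouse 13, 4.47 in mouse 22, 5.49 in mouse 14 and 5.79 in mouse 20, and 4.49 to 5.23 in the others. Nr1d1, the gene of the heme-binding repressor REV-ERB alpha, was 6.69 in mouse 13 and 7.08 in mouse 22, and highest in mice 14 and 20 at 7.77 and 7.75. The core loop genes Cry2 and Per2 are named as the least variable members of the list. Cry2 lay between 6.33 and 6.59 and Per2 between 3.57 and 3.98. Their ranges do not stand for the other core loop genes. Of the 17 clock genes, 12 had an SD below the median of all genes, and mouse 13 was the lowest in 7, where it was the lowest for 22.95% of all genes. The SDs were not matched for level: the median level was 6.12 for clock genes and 4.57 for all genes.

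The promoters of 2 clock genes that moved together, from RefSeq on build GRCm38.p6, are shown with each E-box (CACGTG, read on both strands) in capitals. Ciart lies at chr3:95882179-95882478 on the minus strand and Nr1d1 at chr11:98775328-98775627 on the minus strand.
Ciart: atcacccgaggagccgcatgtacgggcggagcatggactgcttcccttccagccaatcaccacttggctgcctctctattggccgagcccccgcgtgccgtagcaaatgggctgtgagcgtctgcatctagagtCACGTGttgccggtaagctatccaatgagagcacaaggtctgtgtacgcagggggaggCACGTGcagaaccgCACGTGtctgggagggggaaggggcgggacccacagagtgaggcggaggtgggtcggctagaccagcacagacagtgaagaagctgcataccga
Nr1d1: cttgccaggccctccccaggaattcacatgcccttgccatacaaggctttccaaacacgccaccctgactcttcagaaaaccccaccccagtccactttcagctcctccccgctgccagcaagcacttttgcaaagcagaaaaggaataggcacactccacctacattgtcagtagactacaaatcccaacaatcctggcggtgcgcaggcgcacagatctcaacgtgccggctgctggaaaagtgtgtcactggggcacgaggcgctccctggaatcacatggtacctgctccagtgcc
The Ciart window held 3 E-boxes and the Nr1d1 window none in these letters, nor a D-box (TTATGTAA or TTACGTAA). An E-box was present in 5 of the 15 clock genes with a promoter in the table, Bhlhe41, Ciart, Cry1, Per1 and Tef, and in 7.15% of all 32851 promoters of that length. Here and below, a gene was counted if any of its promoters held the motif. The share over all promoters counts each promoter singly, 32851 for 27025 gene symbols, so the 2 measures are not alike. A match is a description of the sequence and not a bound site.

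With Dbp, limma called 42 of 16015 genes (0.262%), 38 rising and 4 falling with it, but no other clock gene: Ciart had an adjusted p of 0.0784 and Nr1d1 of 0.137. With arrays centred, 89 genes were called, 37 rising and 52 falling. The called genes with the smallest p were Tmem9, Nr1h2, Gtf2h4, Bri3, Fxyd6, Dynll1, Gata2 and Cyp2s1. Tmem9 ran from 4.53 in mice 13 and 22 to 5.83 in mouse 14 (slope 1.09 ± 0.163, adjusted p = 0.0365). Olig2, Nefl and Nr4a1 were the only list members among the 42. No gene was called among the 10 letter A arrays, without mice 13, 14 and 19, or without any 1 of mice 14, 16, 20 or 22 (1374 to 2767 genes at an unadjusted p under 0.05). Without mouse 13 only 1 was, and it was not among the 42. Values of Ciart and Nr1d1 correlated at 0.74 (Spearman 0.73) and at 0.68 among the 10 letter A mice. This pair was 1 of 18 pairs of list genes with agreeing probesets, a family defined after the data were seen, and 5 of the 18 passed for both coefficients. For Ciart and Nr1d1 the permutation p was 0.00662 for Pearson's and 0.00972 for Spearman's coefficient (adjusted p = 0.0298 and 0.036).

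Immediate early genes are switched on within minutes in active neurons and in tissue under stress. Arc, a synaptic plasticity gene, ran from 4.99 in mouse 13 and 5.05 in mouse 22 to 5.94 in mouse 20 and 6.07 in mouse 23. Nr4a1, a nuclear receptor gene, was 5.93 in both mouse 13 and mouse 22, and 7.23 in mouse 14 and 7.21 in mouse 20. Dusp1, a phosphatase gene that shuts off MAP kinases, was lowest in mice 22 and 15, at 6.82 and 6.89, and highest in mouse 23, at 7.92. Ier2 was 4.59 in mouse 23 and 2.45 to 3.67 elsewhere, with probesets that did not agree (correlation -0.101). Mouse 23 was highest for 8 of the 17 immediate early genes and for 15.98% of all genes. Fos, the first gene on the list, ran from 4.07 to 4.99 and called no gene by limma. Arc and Nr4a1 correlated at 0.83 (Spearman 0.77, permutation p = 0.00089 and 0.00478, adjusted p = 0.00534 and 0.036), at 0.83 without mice 13 and 23 and at 0.69 among the letter A mice, while Nr4a1 and Npas4 correlated at 0.24.

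Dusp1 is shown with its cAMP response element (TGACGTCA) and E-box in capitals, at chr17:26508423-26508722 on the minus strand of GRCm38.p6.
Dusp1: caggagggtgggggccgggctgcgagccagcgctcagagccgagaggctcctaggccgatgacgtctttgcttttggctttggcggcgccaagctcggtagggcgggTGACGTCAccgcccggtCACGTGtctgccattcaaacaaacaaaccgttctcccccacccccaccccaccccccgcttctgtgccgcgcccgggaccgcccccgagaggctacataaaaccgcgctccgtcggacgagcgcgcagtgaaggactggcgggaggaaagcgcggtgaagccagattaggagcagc
A cAMP response element was found in 1.79% of all promoters and in 2 of the 13 immediate early genes with a promoter, Btg2 and Dusp1. The heat shock element (GAANNTTC) was found in 6 of 9 heat shock genes with a promoter, Bag3, Chordc1, Hspb1, Hspd1, Hspe1 and Hsph1, against 7.86% of all promoters. These genes had their highest values in different mice, Hspb1 in mouse 23 (4.37) and Hspd1 in mouse 13 (6.99). Chordc1 was 4.22 in mouse 14 and 4.67 in mouse 19, and 5.09 to 5.88 in the others. Hspa8, the constitutive chaperone gene, had little spread, 10.36 ± 0.11, and called no gene.

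Myelin genes rose and fell together more than most lists. The median pairwise correlation of the 12 measured oligodendrocyte genes was 0.51 over the mice, where that over all genes was 0.0819. It was 0.56 among the letter A mice, 0.39 without mouse 19 and 0.21 with each array centred on its median gene value, where that over all genes was 0.0178. Mobp, a myelin protein gene and the first on the list, was 6.24 in mouse 13, 6.49 in mouse 19 and 6.95 in mouse 23. Its probesets correlated at only 0.195 over the mice and its SD was 0.172, so calls with it rest on a poorly followed gene. Opalin, a late myelin gene, ran from 3.43 in mouse 21 to 4.93 in mouse 23 (probeset correlation 0.178), and Mal, a myelin membrane protein gene, from 7.28 in mouse 13 and 7.29 in mouse 19 to 8.28 in mouse 20 and 8.38 in mouse 23. Mouse 23 was highest for 9 of the 12 genes, and it was highest for 15.98% of all genes. By limma, 4 of 16015 genes moved with Mobp (0.025%), Smpdl3a, Sh3bgrl3, Adi1 and Proser2, all lowest in mouse 13 and highest in mouse 23. No other oligodendrocyte gene was called. Without mouse 13, 16, 22, 23 or 24 limma called no gene (1547 to 2727 at an unadjusted p under 0.05), without mouse 19 or 21 a single one, without mouse 15 there were 2, without mouse 18 there were 128 and without mouse 20 there were 185.

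**Figure D5:**
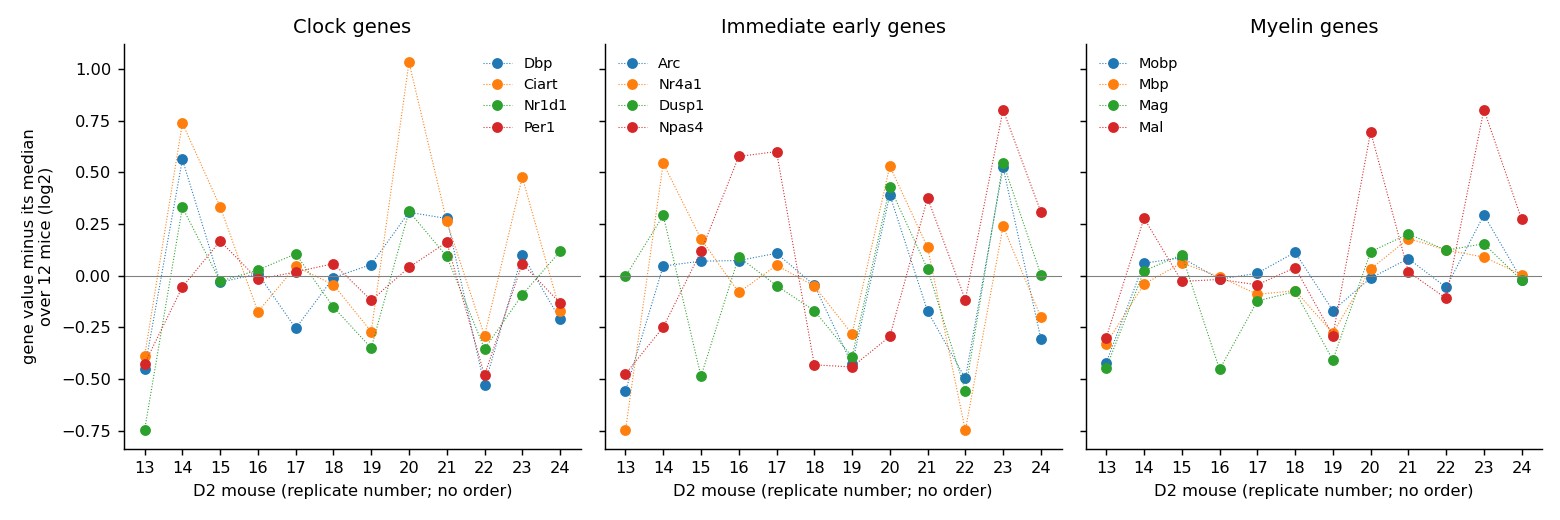
Deviation of gene values from each gene's median over the 12 mice (log2, vertical axis) for clock, immediate early and myelin genes in each mouse (horizontal axis; dotted lines only guide the eye). Mice 13 and 22 lie low for Dbp, Ciart, Nr1d1, Arc and Nr4a1, and mouse 23 is the highest for Mobp and Mal.

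Other lists moved together less, or in few mice. The pituitary list had a median pairwise correlation of 0.67, and the olfactory list of 0.37, which was 0.059 without mouse 13. The glutamatergic list stood at 0.28 and the endothelial list at 0.30, and at -0.061 and 0.048 when arrays were centred. Microglial and choroid plexus genes stood at 0.012 and 0.044. Tubb3, a neuronal tubulin gene, and Thy1, a neuronal surface protein gene, correlated at 0.93 (permutation p = 0.00012, adjusted p = 0.00108) and at 0.76 without mice 13 and 22, and both were lowest in mice 13 and 22 (7.62 and 7.76 for Tubb3, 8.46 and 8.68 for Thy1). The metallothionein genes Mt1 and Mt2, which bind zinc, correlated at 0.69 (permutation p = 0.0117, adjusted p = 0.0423). The correlation was 0.78 without mice 20 and 22 but 0.47 with arrays centred, and Mt1 was highest in mouse 20 (8.41). Tubb3 with Thy1, Mt1 with Mt2, and Arc with Nr4a1 above are among the 18 pairs defined after the data were seen. Ttr and Kcnj13, a channel gene of the choroid plexus, correlated at 0.83 in the family of 125 pairs of each list's first gene with its other members (permutation p = 0.00044, adjusted p = 0.0275, but 0.262 for Spearman's coefficient) and at 0.72 without mice 18 and 20, and both were lowest in mouse 18.

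Single members of the neuronal lists varied more than the rest of their list. Vip, a peptide gene of a class of cortical interneurons, ran from 2.13 in mouse 19 and 2.41 in mouse 13 to 3.75 in mouse 23 (SD 0.535), the only GABAergic gene in the highest 5% of SDs. Tbr1, a transcription factor gene of deep cortical neurons, was 4.05 in mouse 19 and 4.10 in mouse 13, and 5.40 in mouse 16. The probesets of Vip and Tbr1 correlated at only 0.121 and 0.038. The striatal opioid peptide genes Penk and Pdyn were both lowest in mouse 13, at 7.06 and 3.57, and highest in mouse 20, at 8.40 and 5.12. Drd1 and Drd2, the dopamine receptor genes of the 2 classes of striatal output neurons, lay between 4.54 and 5.43 and between 5.33 and 6.02. Of cerebellar genes, Car8 of Purkinje cells lay between 8.11 and 8.73 and Gabra6 of granule cells between 6.54 and 7.51, the latter lowest in mouse 19. Sox9, a transcription factor gene of astrocytes, was 4.44 in mouse 13 and 5.45 to 6.13 in the other 11 mice (probeset correlation 0.154). Gfap, the intermediate filament gene of astrocytes, ran from 5.06 in mouse 13 to 6.44 in mouse 24.

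Genes that respond to stress hormones, interferon or inflammation had spreads near those of other genes. The median SD was 0.264 for the 11 glucocorticoid and stress genes and 0.298 for the 8 interferon genes, against 0.25 over all genes, without matching for level. Lcn2, an acute-phase iron-binding protein gene, ran from 1.92 in mouse 13 to 3.62 in mouse 20 and 3.49 in mouse 15. Mt2 was 7.35 in mouse 13 and 8.68 in mice 15 and 23. Nfkbia, the NF-kappa-B inhibitor gene, ran from 4.07 in mouse 24 to 5.59 in mouse 23. Ifi27, an interferon-induced gene, was highest in mice 19 and 24, at 4.33 and 4.25, and lowest in mouse 22, at 2.59. The probesets of Lcn2, Nfkbia and Ifi27 correlated at 0.266, 0.074 and 0.233. Genes often used to normalise expression were not all stable: Ywhaz stood at 9.84 ± 0.107 and Actb at 9.77 ± 0.145, but Hprt ran from 6.24 in mouse 19 and 6.40 in mouse 14 to 7.54 in mouse 22 (SD 0.408), and Rplp0 was 6.01 and 6.02 in the letter B mice and 6.65 to 6.93 in the others.

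The remaining first genes of the lists called no gene by limma. These were S100a5, Ttr, Hbb-b1, Fos, Hspa8, Fkbp5, Car8, C1qb and Acta2, with 832 to 1726 genes at an unadjusted p under 0.05. Probesets of Car8 and C1qb, for example, correlated at only 0.322 and 0.097, so a lack of calls with them says little. Hbb-b1, a beta globin gene and a measure of blood left in the tissue, ran from 4.68 in mouse 24 to 6.98 in mouse 14, an SD of 0.724, with a probeset correlation of 0.246. Alas2, the red cell enzyme of heme synthesis, was also highest in mouse 14 (4.49) but lowest in mouse 13 (2.73). Fkbp5, a glucocorticoid-induced gene, ran from 3.87 in mouse 19 to 4.69 in mouse 21. The hypothalamic peptide gene Oxt, which encodes oxytocin, ran from 3.03 in mouse 13 to 4.67 in mouse 16, and Pmch, which encodes melanin-concentrating hormone, from 4.01 in mouse 18 to 5.29 in mouse 15 (probeset correlations 0.095 and 0.348).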

How the data were processed

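The authors deposited log2 values per probeset. The submitters' processing notes name RMA, the affy package (version 1.12.2) and R (version 2.6.0). RMA equalizes the distributions of arrays, which can remove or spread differences shared by a whole array, and its options and the probeset definition are not given in the sources used here. Of 1201338 probesets, 10932 were empty. Probesets with 1 gene symbol were named from the platform annotation and updated to current symbols, and 874312 had none.

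Here gene values, SDs and correlations were computed for the 12 D2 arrays, with Python 3.11.15. Each gene was regressed on a list's first measured gene, on data-driven anchors (the most variable gene with probeset correlation of at least 0.5, then the next not yet called), on the array median and on the file letter, with limma 3.58.1 in R 4.3.3 and Benjamini-Hochberg adjustment at 0.05 over all genes. On simulated data with 12 mice, genes were independent and their noise had each gene's observed SD. Added slopes of 2 of these noise SDs per SD of Gh were recovered in 94% and of 1 in 20%. Of 114 calls, 6 were false. Real genes share variation across the arrays, so these shares do not carry over to the calls above. Pairs were tested with 100000 permutations, two-sided. The genes named were the 24 most variable with agreeing probesets and the 6 most variable without, the 6 most stable in the 10% of genes with the highest levels, the first, most variable and least variable members of lists, and the called genes with the smallest p. Other genes named with values were chosen after their values were seen. The gene lists and the mice were chosen with earlier results of these data known. Alternatives were other filters, summaries, scalings and subsets of mice.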

Additional observations from a re-analysis of the deposited data

How the results depend on the processing

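No paired analysis was possible because only 1 group of mice was analysed. Counts are genes called by limma with a gene, named here, or with an array property, unless said otherwise. With 1 mouse left out at a time, a choice made after seeing the data except for mouse 19 with Gh, Dbp, Mobp, the array median and the file letter, calls ran from 1 to 2 with Gh, 0 to 59 with Dbp, 0 to 185 with Mobp, 0 to 2 with Scgb1c1, 0 to 600 with Rnu2-10, 0 to 1 with the array median and 0 to 239 with the file letter. Without mice 13, 14 and 19, calls were 0 with Dbp, Mobp, Rnu2-10, the array median and the file letter, and 1 with Car8. Among letter A arrays they were 0 with Dbp, Mobp and Scgb1c1, 1 with Rnu2-10 and 3 with the array median. Without the 2 mice farthest from the median of the gene regressed on, they were 0 with Gh, Dbp, Mobp, Scgb1c1 and Rnu2-10, and 1 with Car8. Centring arrays gave 89 with Dbp (37 rising, 52 falling) and 0 with Mobp, Rnu2-10 and the array median. With the array median as a covariate there were 70 with Dbp, 234 with Mobp and 287 with the file letter. The mean over probesets gave 595 with Dbp, 2172 with Mobp, 1933 with Rnu2-10, 895 with Hspa8, 746 with C1qb, 626 with the file letter, 4 with Hbb-b1, 2 with Car8, 1 each with AY036118 and Astx5, and 0 with the array median. The stricter filter, at the 75th percentile of probeset means, gave 0 with Gh and with the array median, 3 with Ttr, 1 with Car8, 235 with Mobp and 646 with the file letter. It removed S100a5, Hbb-b1, Astx5, Scgb1c1 and Rnu2-10, which then gave no value. No filter gave 5 with Gh, 0 with Dbp and with the array median, 47 with Mobp, 4 with Scgb1c1, 320 with Rnu2-10, 79 with the file letter, 2 with Hbb-b1 and 1 with Fos. The filter on the D2 mean gave 3 with Gh, 26 with Dbp and 2 with Mobp. Of the 50 most variable genes, 28 were shared without mice 13, 14 and 19, 20 with the mean over probesets, 3 with the stricter filter, 16 with no filter and 28 by median absolute deviation, and 41 without mouse 19. The cause of these changes was not tested. Of the 259 comparisons with alternatives, 160 kept their count within 1.5 times or stayed at 0. Arrays give no counts, and precision is limited by the number of mice.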
